A study of Mus musculus with 6 samples.

Results

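TRIM proteins are a large family of ubiquitin ligases that carry a RING finger, B-boxes and a coiled coil, followed in most members by a domain that binds the target. Several of them act in the defence against viruses: they tag sensors of foreign nucleic acid, their adaptors or viral proteins with ubiquitin, and a number of their genes are themselves switched on by interferon. Other members work in chromatin, muscle, neurons, the embryo or the P53 response.

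The family was taken as every non-control probe of the arrays whose gene name was Trim followed by a number and at most 1 letter from a to d. The rule found 93 of 55681 probes, with 62 gene names. All cultures were of 3T3, a fibroblast cell line once established from mouse embryos, and shared their background and medium. They received GapmeR Ntep, an antisense oligonucleotide that recruits RNase H to the noncoding RNA Ntep, or a GapmeR control without that target, at 50 nM for 48 h. The experiment was done 3 times, with 1 culture for either GapmeR each time, and the 6 RNA samples went onto 6 single-color Agilent arrays, which by the scanner headers sat on a single slide. A line transfected with a single targeting oligonucleotide is the limit of the model, since its effects on Ntep and on other RNAs cannot be told apart.

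The share of probes well above background ran from 43.7% to 53.3% per array, and no TRIM probe was saturated. Of 12 fibroblast markers, 11 were well above background on all 6 arrays, and Fap was so on none. Of these 11, 10 were below 0 with GapmeR Ntep and none was called. Their median was -0.47 on the log2 scale, and their summed signal was 854294 to 941486 with GapmeR control and 594245 to 787707 with GapmeR Ntep. The probe of Ntep (A630089N07Rik in the files) read 472, 91.5 and 226 on the GapmeR Ntep arrays of experiments 1, 2 and 3, and 271, 272 and 361 on the GapmeR control arrays. It was thus higher with GapmeR Ntep in experiment 1, against the label, and lower in the other two experiments. The groups are called by their labels throughout, and counts are also given without the GapmeR Ntep array of experiment 1.

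Of the 93 TRIM probes, 62 probes of 42 gene names were tested, because their mean signal reached 50 in whichever group was brighter. They passed through that group, and 1 of them, the dimmer Trim65 probe, would have been left out by the mean over all 6 arrays. That probe is among the 9 called lower. It is also among the 4 lower after adjustment, with 1 probe each of Trim34a, Trim30d and Trim30a. The other 31 probes were dim: 27 of them were well above background on no array, and none exceeded a signal of 94.1. These dim probes were all that represented 20 gene names, among them Trim5, Trim10, Trim14, Trim31, Trim38 and Trim66. On the tested probes, 48 were well above background on all 6 arrays.

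More TRIM probes were called lower than higher with GapmeR Ntep, and the share called higher was near that of all tested probes. A probe was called lower or higher when it differed at least 2-fold with an unadjusted p under 0.01 in limma, which were the limits of the study. By these limits 9 of the 62 tested TRIM probes, or 14.5%, were lower with GapmeR Ntep, and they belonged to 7 genes: Trim34a, Trim30d, Trim30a, Trim21, Trim24, Trim65 and Trim26. Of all 30990 tested probes, 5.06% were lower. Only 2 TRIM probes, or 3.23%, were higher, those of Trim15 and Trim39, against 3.08% of all tested probes. In either direction these were 11 of 62 (17.7%), with 8.13% of all tested probes. After Benjamini-Hochberg adjustment over all tested probes, 4 TRIM probes were lower (background 3.21%) and 1 was higher (background 2.09%) at an adjusted p under 0.05, or 8.06% in either direction with a background of 5.3%. With experiments as replicate blocks these counts were 8 (12.9%, background 7.31%) and 4 (6.45%, background 6.54%). Without the GapmeR Ntep array of experiment 1, 7 probes were lower and 1 was higher at the limits of the study, and 3 and 0 after adjustment. Without the GapmeR Ntep array of experiment 3, or without any 1 of the GapmeR control arrays, 5 TRIM probes were lower by the limits of the study and none was called after adjustment, while 0% to 0.452% of all tested probes were.

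The arrays of the groups did not overlap for 31 TRIM probes (50%), against 32.1% of all tested probes. These were 18 probes with lower signal under GapmeR Ntep (background 15.1%) and 13 with higher signal (background 17%). The median log2 difference, GapmeR Ntep minus GapmeR control, was -0.24 over the tested TRIM probes (quartiles -0.92 and 0.43) and 0.06 over all tested probes. Within experiments 1, 2 and 3 the TRIM median was -0.31, -0.12 and -0.16. Below 0 were 34 probes and above 0 were 28, so the family as a whole did not move one way. With 3 against 3 arrays, an exact permutation test of 1 probe cannot fall below a two-sided p of 0.1, and none is given.

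**Figure D1:**
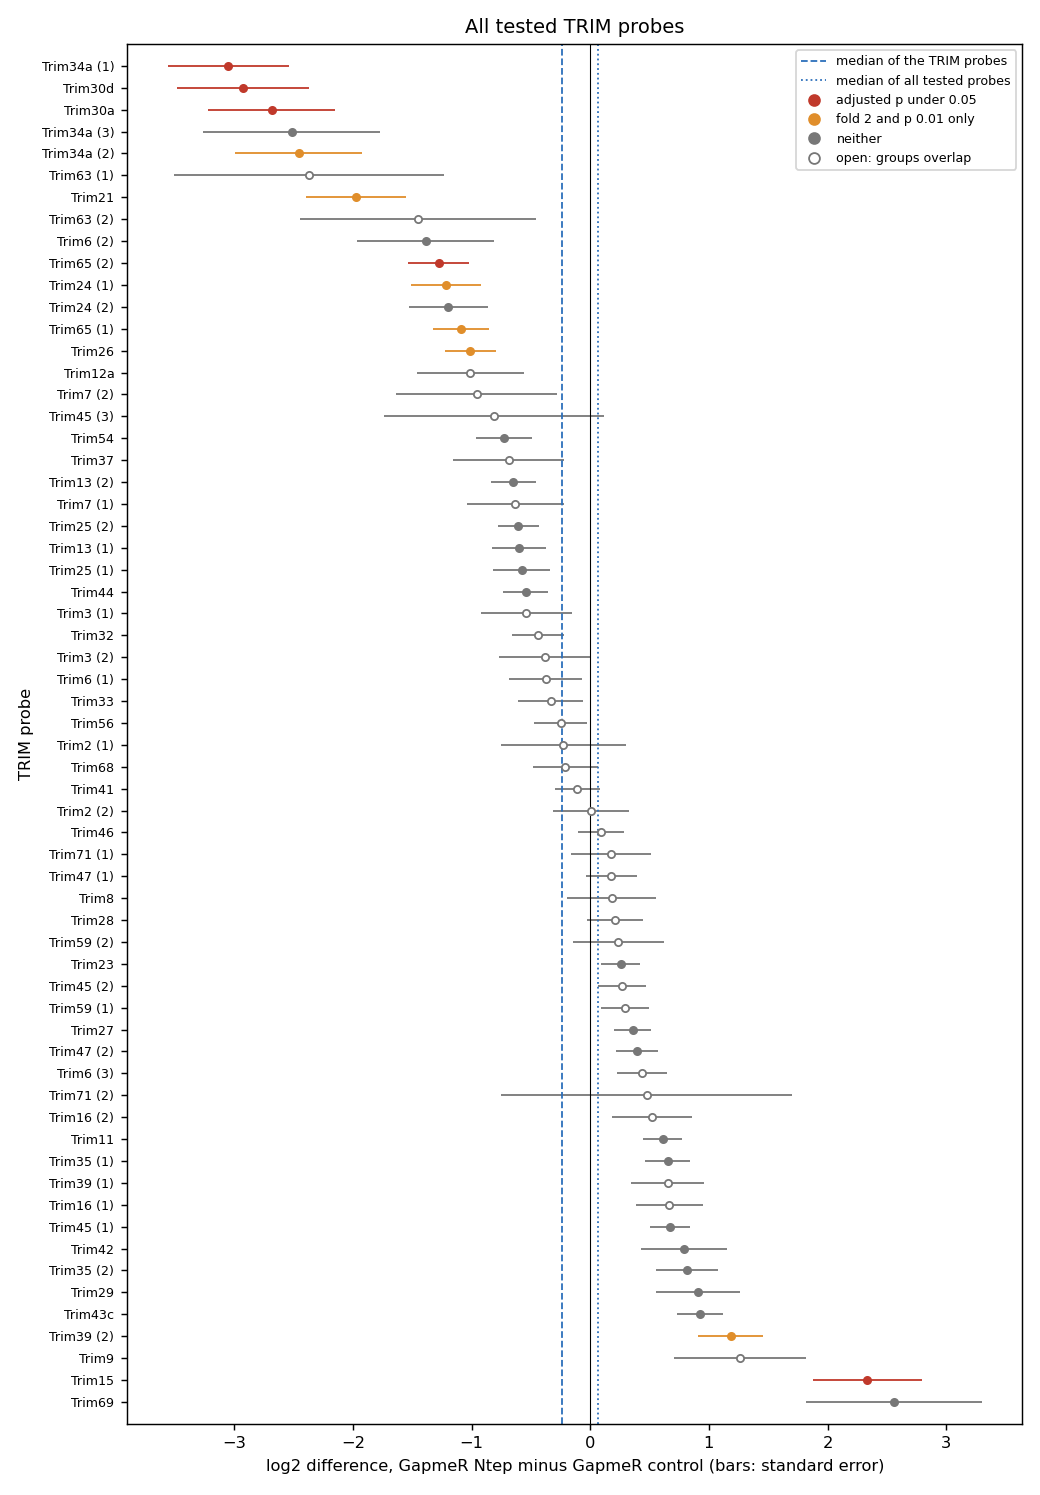
Log2 difference of each of the 62 tested TRIM probes (x axis, GapmeR Ntep minus GapmeR control, bars for the standard error), ordered from lowest to highest, with a number in brackets where a gene has several probes. The lower end was held by Trim34a, Trim30d and Trim30a at -3.05 to -2.46, the upper end by Trim15 at 2.34 and Trim69 at 2.56, and probes with open symbols had groups that overlapped.

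The lowest differences lay in 1 stretch of chromosome 7. This cluster holds Trim6, Trim34a, Trim5, Trim12a, Trim30a and their relatives, which in the mouse have multiplied by duplication. Trim30a is known as a brake on Toll-like receptor signalling, and Trim5 and Trim12 are relatives of genes that block retroviruses. The files name Trim34a as Trim34, Trim30d as Trim79, Trim30a as Trim30 and Trim12a as Trim12. Members of the cluster are close copies of each other, so probes may catch RNA of more than 1 of them, and values of single members are uncertain to that extent.

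Trim34a read 3447, 4441 and 4033 on the GapmeR control arrays of experiments 1, 2 and 3, and 210, 785 and 657 on the GapmeR Ntep arrays (probe at chr7:111410513-111410572, mm9). The GapmeR Ntep arrays were all far below the control arrays, with the lowest value in experiment 1. On the log2 scale this was -3.05 (SE 0.51), an 8.29-fold lower signal, with a limma adjusted p of 0.0351. The other two Trim34a probes had log2 differences of -2.46 (SE 0.54, limma adjusted p = 0.0562) and -2.52 (SE 0.75, limma adjusted p = 0.106), again without overlap. The first of them passed the limits of the study, and with blocks its adjusted p was 0.0471. It maps at 107.2 kb from the first Trim6 probe, apart from the others at 19.5 and 33.8 kb, and may read the near copy Trim34b.

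Trim30d read 3588, 4820 and 3471 with GapmeR control and 211, 747 and 863 with GapmeR Ntep. Its log2 difference was -2.93 (SE 0.56, limma adjusted p = 0.0430), a 7.61-fold lower signal. Trim30a fell from 22047, 33242 and 27057 to 1810, 6184 and 6683. Its log2 difference was -2.68 (SE 0.53, limma adjusted p = 0.0472), a 6.42-fold lower signal. In both genes, as in Trim34a, the GapmeR Ntep array of experiment 1 was the lowest. Without that array the differences of Trim34a, Trim30d and Trim30a were -2.46, -2.29 and -2.07 and stayed under an adjusted p of 0.05. Without any 1 of the GapmeR control arrays, or without the GapmeR Ntep array of experiment 3, all 3 rose above it (0.0715 to 0.178), and without that of experiment 2 Trim30d and Trim30a did (0.0587 and 0.0602).

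Trim12a and Trim6 did not pass. Trim12a read 38.8, 87.3 and 85.7 with GapmeR control and 45.6, 39.0 and 20 with GapmeR Ntep, where it was well above background on no array. Of the 3 Trim6 probes, 2 were below 0, at -1.39 (limma adjusted p = 0.206) and -0.38 (0.484). The third was above 0 (0.265), but it was well above background on no GapmeR control array and on 1 GapmeR Ntep array. The first of these was without overlap, from 191, 243 and 188 with GapmeR control to 30.7, 127 and 126 with GapmeR Ntep.

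Genes of the cluster that the files list under other names fell outside the rule but lay between its members. Trim30b (A530023O14Rik) read 124, 247 and 204 with GapmeR control against 31.1, 27.8 and 48.8 with GapmeR Ntep. It was well above background on no GapmeR Ntep array, so that the signal was at least 3.71-fold lower (limma adjusted p = 0.0287). The 3 probes of Trim12c (9230105E10Rik) differed by -1.77, -2.36 and -2.50, and only the last passed the limits of the study (limma adjusted p = 0.0572). Trim30c (Gm5598) differed by -1.30 with overlapping groups. These 3 genes were singled out after their values were seen. Taking the brightest probe of each gene, 8 of the 9 genes of the cluster were tested and all 8 were below 0. After adjustment 4 were lower (background 3.21% of all tested probes): Trim34a, Trim30d and Trim30a of the rule, and Trim30b. Because these counts of genes include the 3 singled out, they are a description and no test against that share of probes. The ninth gene was Trim5, well above background on no array.

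Over the 244 kb from the first Trim6 probe to Trim30d and 200 kb to either side, 9 TRIM probes named by the rule and 14 other probes were tested. Of the former 4 were lower by the limits of the study, where 5.06% of all tested probes were. Of the latter 5 were lower, among them a probe each of Trim12c and Trim30b. The others had no gene name and lay at 91.1, 153.9 and 159.4 kb from the first Trim6 probe. The flanks held mainly olfactory receptor probes too dim to test.

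**Figure D2:**
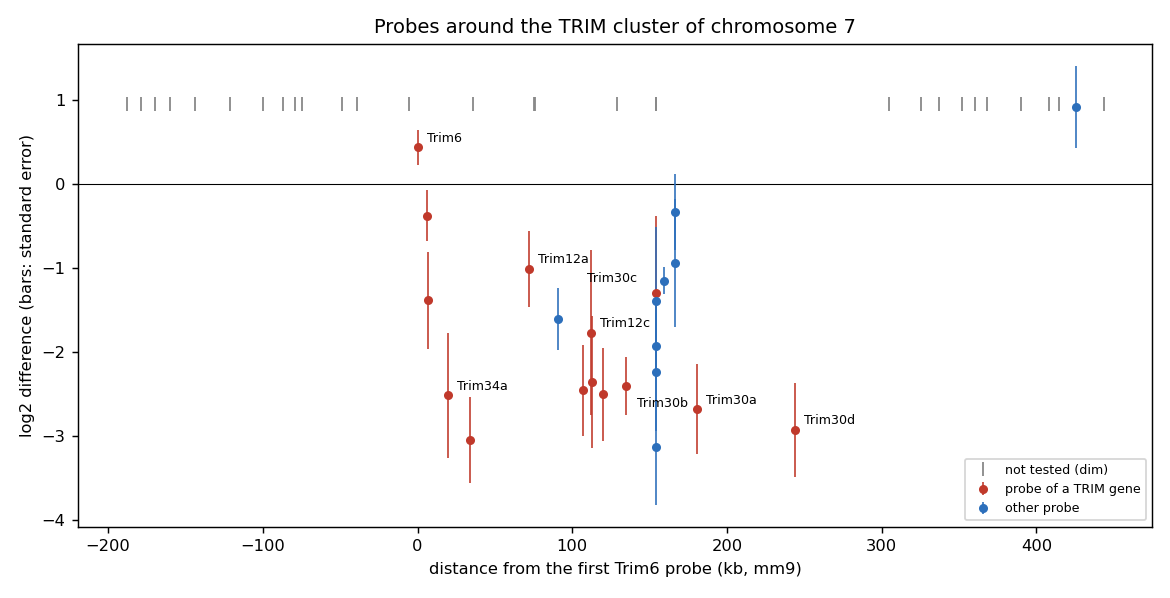
Log2 difference (y axis, bars for the standard error) of probes around the chromosome 7 cluster by their distance from the first Trim6 probe in kb (x axis, positions of mm9), with TRIM genes in red, other probes in blue and untested probes as ticks. Tested probes between 0 and 244 kb were below 0 except 1 probe of Trim6 at 0.44, and the flanks were almost without signal.

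Genes switched on by type I interferon carry a short response element near the start. Its core, GAAA followed by any 2 bases and GAAA, was searched on both strands in the RefSeq promoters of GRCm38.p6, from 250 bases before to 50 after each start. Of 27025 genes with a promoter in the table, 1079 held it (3.99%). A promoter was at hand for 6 of the 7 TRIM genes that were lower by the limits of the study, and 5 of these 6 held it: Trim34a, Trim30a, Trim30d, Trim21 and Trim26. Trim24 did not. Neither Trim15 nor Trim39 held it, and of the 25 tested TRIM genes without a call, 2 did (Trim2 and Trim12a). On the whole array the core stood in 10.3% of the 797 genes with a lower probe, in 4.79% of the 480 with a higher one and in 3.28% of the 10471 others with a promoter. The core of the gamma-activated site is TTC, any 3 bases and GAA, and reads the same on both strands. It stood in none of the 6 lower TRIM genes, in 1 of the 2 higher ones, Trim15, and in 9.55% of all genes. On the whole array it stood in 11.8% of the genes with a lower probe, in 9.58% of those with a higher one and in 8.26% of the others. A match of letters is a description and does not show that a factor binds.

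The windows of 30 bases are shown because they hold the element in the genes that fell. They are written 5′ to 3′ along the gene, with the core in capitals, and positions are those of GRCm38.p6. In Trim21 and Trim26 a pair of cores overlap. Trim30a has 2 promoters in the table, and both hold the core. It lies before the start in Trim30d, Trim26 and the first Trim30a promoter, and just after it in Trim34a, Trim21 and the second Trim30a promoter.
Trim34a, chr7:104244457-104244486, plus strand: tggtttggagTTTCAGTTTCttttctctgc
Trim30a, first promoter, chr7:104465210-104465239, minus strand: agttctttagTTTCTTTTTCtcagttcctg
Trim30a, second promoter, chr7:104446104-104446133, minus strand: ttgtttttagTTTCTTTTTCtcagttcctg
Trim30d, chr7:104507871-104507900, minus strand: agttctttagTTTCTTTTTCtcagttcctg
Trim21, chr7:102565447-102565476, minus strand: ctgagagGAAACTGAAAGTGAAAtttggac
Trim26, chr17:36836979-36837008, plus strand: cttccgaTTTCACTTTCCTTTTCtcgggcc

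The windows of Trim30d and the first Trim30a promoter were the same base for base, while that of the second Trim30a promoter differed before the core. The promoter of Trim30d and the first of Trim30a, of 300 bases each, were identical at 276 of 295 aligned bases (93.6%) when shifted by 5 bases. The 100 bases before each start are given to show how alike the duplicated genes are where the core lies.
Trim30a, first promoter, chr7:104465194-104465293, minus strand: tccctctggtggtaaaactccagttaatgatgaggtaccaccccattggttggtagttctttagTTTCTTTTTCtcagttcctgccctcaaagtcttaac
Trim30d, chr7:104507850-104507949, minus strand: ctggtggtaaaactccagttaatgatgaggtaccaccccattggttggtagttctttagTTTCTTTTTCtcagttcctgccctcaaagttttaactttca

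Among TRIM genes of innate immune signalling, 11 of 15 were tested, 7 below 0 and 4 above. By the limits of the study 3 were lower (background 5.06%): Trim21, Trim65 and Trim26. The median of the 11 was -0.25, and none had a brightest probe under an adjusted p of 0.05. Trim21 is the receptor in the cytosol for antibody-coated viruses. It read 6338, 12318 and 7938 with GapmeR control and 1263, 3070 and 2641 with GapmeR Ntep. Each experiment showed the lower value, with log2 differences between -2.33 and -1.59 within experiments. The fitted difference was -1.97 (SE 0.42), a 3.93-fold lower signal, with a limma adjusted p of 0.0534 that became 0.0310 with the experiments as blocks.

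Trim26, known to act on Irf3 and Tbk1, read 59624, 54234 and 47857 with GapmeR control and 21203, 32465 and 27533 with GapmeR Ntep. It differed by -1.01 on the log2 scale (SE 0.22, limma adjusted p = 0.0547), only just past 2-fold, and with each array scaled to its 75th percentile it was -0.83. Trim65, a ligase of the RNA sensor Ifih1 (MDA5), had 2 probes. The brighter read 518, 305 and 407 against 195, 172 and 200, a log2 difference of -1.09 (SE 0.24, limma adjusted p = 0.0556, or 0.0397 with blocks). The dimmer read 74.7, 58.5 and 62.3 against 20, 35.5 and 26.9. It was well above background on 1 GapmeR control array and on no GapmeR Ntep array, so that the signal was at least 1.31-fold lower (limma adjusted p = 0.0482, or 0.0563 with blocks). The dimmer probe also lost its call without the GapmeR Ntep array of experiment 1 (adjusted p = 0.0823) and without that of experiment 3 or any 1 control array (0.0927 to 0.162).

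Trim25, which activates the RNA sensor Ddx58 (RIG-I), had probes among the brightest of the family. Its brightest probe read 149074, 138442 and 122944 with GapmeR control and 67825, 113046 and 99943 with GapmeR Ntep. Both probes were without overlap but did not pass, at -0.58 (SE 0.24, limma adjusted p = 0.206) and -0.61 (SE 0.17, limma adjusted p = 0.0958). Trim13, a ligase of the endoplasmic reticulum, was similar with -0.60 (0.173) and -0.65 (0.101), also without overlap. The remaining tested genes of the group were Trim56, Trim68, Trim8, Trim59, Trim23 and Trim27, whose differences ran from -0.25 to 0.36 with adjusted p-values from 0.224 to 0.792. The lowest p-value in that range was that of Trim27, at 0.36 and without overlap.

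TRIM genes with a bromodomain, 3 of which were tested, encode proteins that read chromatin and act as coregulators of transcription. Trim24, a partner of nuclear receptors that also marks P53 for breakdown, fell. Its brighter probe read 36187, 39419 and 34917 with GapmeR control and 10604, 22354 and 16866 with GapmeR Ntep. The log2 difference was -1.21 (SE 0.30, limma adjusted p = 0.0701, or 0.0496 with blocks), and the second probe gave -1.20 (SE 0.33, limma adjusted p = 0.0914), so that the probes showed the same size. Trim28, the corepressor of zinc finger proteins with a KRAB box, differed by 0.21 (SE 0.24, limma adjusted p = 0.615) and Trim33, a partner of Smad4, by -0.33 (SE 0.27, limma adjusted p = 0.484), both with overlapping groups.

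**Figure D3:**
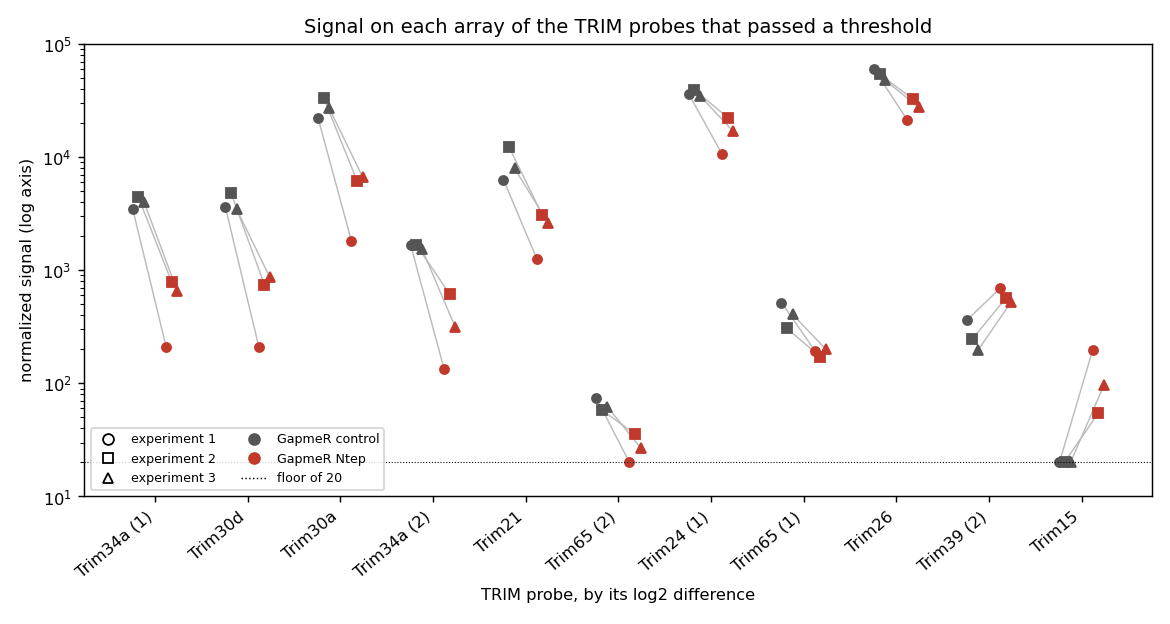
Normalized signal on each array (y axis, log axis) of the 11 TRIM probes that passed the limits of the study or an adjusted p under 0.05, with GapmeR control in grey, GapmeR Ntep in red, 1 symbol per experiment and a line joining the arrays of 1 experiment. In each probe the groups did not overlap. The GapmeR Ntep array of experiment 1 was the lowest for Trim34a, Trim30d, Trim30a, Trim21, Trim24, Trim26 and the dimmer Trim65 probe. It was the highest for Trim15 and Trim39, and at the brighter Trim65 probe it lay between the other GapmeR Ntep arrays. The GapmeR control arrays of Trim15 lay at the floor of 20.

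The genes called higher, Trim15 and Trim39, lie with Trim26 in the MHC region of chromosome 17. Of 6 TRIM genes listed there 3 were tested by their brightest probe, 2 above 0 and 1, Trim26, below. Trim15, a regulator of focal adhesions, read 20, 20.4 and 20 with GapmeR control, where it was well above background on no array, and 199, 54.8 and 96.3 with GapmeR Ntep, where it was so on all 3. This was an at least 2.03-fold higher signal (limma adjusted p = 0.0464). The call was lost without the GapmeR Ntep array of experiment 1 (0.0559), without that of experiment 3 (0.137) and without any 1 control array (0.0901 to 0.167). Trim39, a ligase linked to apoptosis and the cell cycle, rose at its dimmer probe, from 361, 247 and 196 to 692, 564 and 524. That difference was 1.18 (SE 0.27, limma adjusted p = 0.0628, or 0.0344 with blocks), while the brighter probe gave 0.65 (SE 0.31, limma adjusted p = 0.255) with overlap.

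Trim69, known from the testis and the centrosome, had the highest difference of the family, 2.56 (SE 0.74). It read 1070, 298 and 189 with GapmeR control and 4440, 1445 and 1925 with GapmeR Ntep. Both groups were highest in experiment 1, and within experiments the difference was 2.05, 2.28 and 3.35. It passed neither limit without blocks (limma adjusted p = 0.0993) and had a limma adjusted p of 0.0324 with them. Without control array 1, which was far above the other two, the difference was 3.29 (adjusted p = 0.0630).

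Trim25, Trim27, Trim35, Trim41 and Trim47 had the probes of highest signal, and none of them passed. Trim35 read 48896, 41622 and 39614 with GapmeR control and 80561, 63546 and 61095 with GapmeR Ntep; its differences of 0.65 (limma adjusted p = 0.104) and 0.82 (0.123) were without overlap at both probes. Trim47 differed by 0.18 and 0.40 and Trim41 by -0.11. Probes of 1 gene pointed in different directions for Trim6, Trim45 and Trim2. In Trim45 the values were 0.67 and 0.27, and the dimmest probe, below 0, was well above background on a single array. In Trim2, an NHL repeat ligase of neurons, they were -0.23 and 0.00.

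Neighbouring TRIM genes outside chromosome 7 could differ in direction. The probes of Trim26 and Trim15 lie 1.55 kb apart on chromosome 17, and the former was lower and the latter higher. The probes of Trim65 and Trim47 on chromosome 11 lie 18.9 to 20.7 kb apart, with a difference of -1.09 at the brighter Trim65 probe against 0.18 and 0.40 for Trim47, which was not called. Those of Trim41 and Trim7 on chromosome 11, 43.5 and 43.7 kb apart, shared a direction. Trim41 was at -0.11 and Trim7 at -0.96 and -0.63, none of them called.

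Further role groups were small. Among muscle members 2 of 4 were tested, both below 0. Trim63 (MuRF1), which drives muscle wasting, gave -2.37 (SE 1.14, limma adjusted p = 0.258) with overlapping groups, and its GapmeR control arrays ranged from 191 to 1160. Within experiments 1, 2 and 3 it was -2.76, -1.80 and -2.56, and with blocks it was lower by the limits of the study and after adjustment (SE 0.24, limma adjusted p = 0.0310). Its second probe gave -1.45 (limma adjusted p = 0.413, or 0.117 with blocks). Trim54 (MuRF3) gave -0.73 (SE 0.23, limma adjusted p = 0.126). Of 6 skeletal muscle markers, 4 were tested and none was called, and their summed signal was 1737 to 2402 with GapmeR control and 1707 to 2417 with GapmeR Ntep. Of the embryo and germ line members 3 of 7 were tested, all above 0 and without overlap (background 17% higher). They were led by Trim69 and by Trim43c at 0.93 (SE 0.19, limma adjusted p = 0.0516, or 0.0374 with blocks). The other Trim43c probes were too dim to test. Trim42 was well above background on no GapmeR control array, and its groups came as near as 58.1 and 59.3. Members that act on P53 were all tested, 8 in number, and by their brightest probes none besides Trim24 was called, while Trim39 was called at its dimmer probe; at the other end stood Trim29 at 0.91 (SE 0.35, limma adjusted p = 0.182). The NHL repeat group gave no call, from Trim3 at -0.54 to Trim71 at 0.18, nor did the microtubule group, with Trim46 at 0.09 and Trim9, which was well above background on no GapmeR control array, at least 1.86-fold higher (limma adjusted p = 0.225). Of 5 members linked to autophagy and membrane repair, 3 were tested, 2 below 0, and Trim21 was the only call. Members without a RING finger gave none either, from Trim44 at -0.54 to Trim29. TRIM proteins under other names were tested for 7 of 11 genes, 5 below 0, with no call and a median of -1.07; the PML gene Pml read lower without overlap at -0.50 (SE 0.18, limma adjusted p = 0.152).

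**Figure D4:**
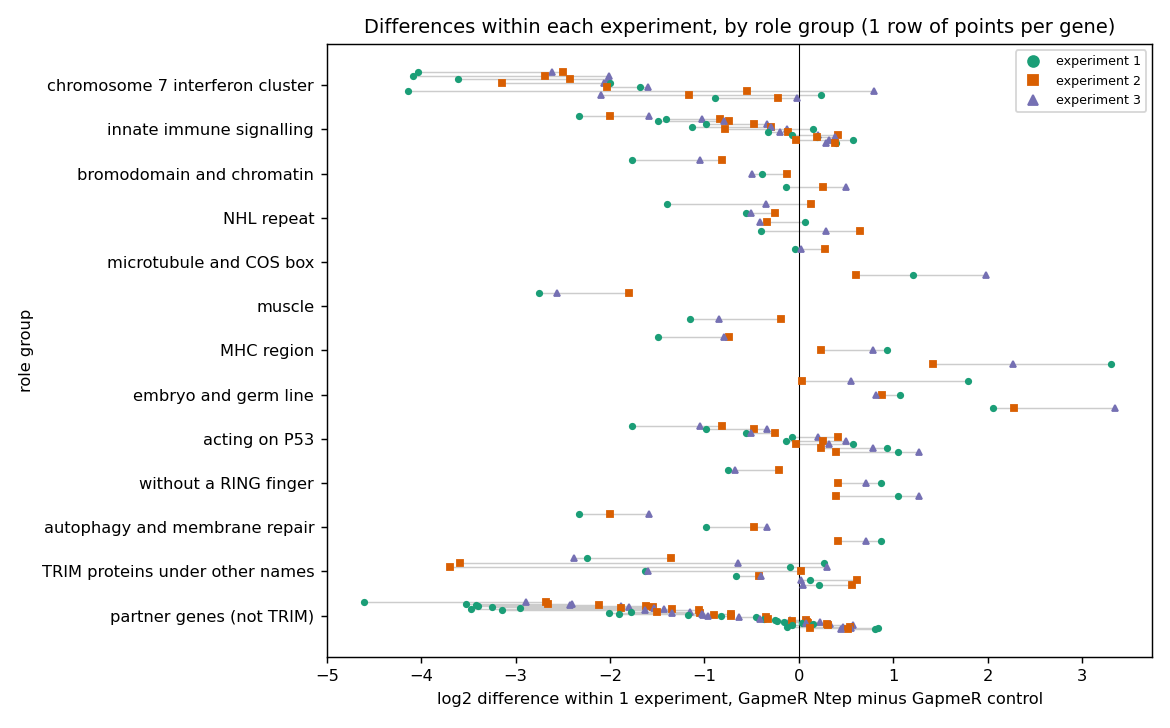
Log2 difference within each experiment (x axis, GapmeR Ntep minus GapmeR control, 1 symbol per experiment), with 1 row of points per gene by its brightest tested probe and genes grouped by role (y axis). The chromosome 7 cluster reached from -4.14 in experiment 1 to 0.80 in experiment 3, both for Trim30c, and its only other value above 0 was that of Trim12a in experiment 1 at 0.23.

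The partners of these proteins in nucleic acid sensing and interferon signalling, listed with earlier results of these data known, were read by the brightest probe of each gene. By the limits of the study 9 of 24 genes were lower and none was higher (5.06% of all tested probes were lower). After adjustment 6 were lower (3.21% of all tested probes). All 24 were tested, 17 below 0 and 7 above, with a median of -0.93. Without overlap, 15 were lower (background 15.1%) and 3 higher (background 17%). Ifih1, the substrate of Trim65, read 9130, 7253 and 6587 with GapmeR control and 1180, 1972 and 2282 with GapmeR Ntep, a difference of -2.12 (SE 0.30, limma adjusted p = 0.0281). Irf3 differed by -0.83 (SE 0.16, limma adjusted p = 0.0430). The summed signal of the 24 genes was 796787 to 902150 with GapmeR control and 371986 to 528104 with GapmeR Ntep.

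The macrophage markers that were called were higher with GapmeR Ntep, and those below 0 were not called. Of 12 markers 6 were tested, with 4 above 0, and Aif1 at -1.28 and Lyz2 at -0.18 below 0. Cd68 and Cd14 were higher by the limits of the study (background 3.08%). Cd68 differed by 1.21 (SE 0.17, limma adjusted p = 0.0287). The summed signal of the 12 markers was 21166 to 27815 with GapmeR control and 43072 to 75472 with GapmeR Ntep. The brightest of them, Itgam, had means of 12753 and 32035 and was not called (limma adjusted p = 0.0881). The defining markers Ptprc, Adgre1, Spi1, Tyrobp, Fcgr1 and Mrc1 were well above background on no array. B cell markers were too dim to test, and none of the 5 tested T cell markers was called. The part of these markers in the TRIM differences was not tested. In RNA of whole cultures, fewer cells with a transcript and less of it per cell cannot be told apart.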

How the data were processed

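RNA of 3T3 cultures treated with GapmeR Ntep or GapmeR control (3 arrays each, from 3 independent experiments) was measured on Agilent mouse arrays in 1 color. Per the submitters' processing notes, the scans were read with Agilent Feature Extraction 10.7.3.1. For each array the authors deposited linear intensities from which background had been subtracted, with flags for spots well above background. They also deposited a table of quantile normalized intensities with values under 20 set to 20, which served as an alternative.

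Spots of 1 probe were averaged, quantile normalization was applied between arrays and 20 was the floor. Probes whose brighter group had a mean of 50 or more were tested on the log2 scale in R 4.3.3 by limma 3.58.1 (data handled by data.table, version 1.17.8), without blocks, as in the settings of the study. Signals in the text are these normalized intensities. All p-values are two-sided, and adjusted p-values are those of Benjamini and Hochberg over all 30990 tested probes. A probe well above background on no array of a group has only a bound there. It was set from the lowest signal well above background on each array.

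TRIM probes were named through a RefSeq table of GRCm38.p6, 85 by accession, 7 by symbol and 1 by an older symbol. Probe positions are those of mm9 in the files, and exons or UTRs were not assigned. Genes are named by rule: those called, or without overlap at a log2 size of at least 1; tested members of the chromosome 7, innate immune and bromodomain groups; the 5 with the brightest probes; those whose probes disagree; at most 3 partner genes, of which 1 is not reported here; and 2 examples of each other role group. The TRIM rule, the role groups and the marker lists were chosen with earlier results of these data known, and the Trim30b, Trim30c and Trim12c probes and the neighbouring pairs were singled out after their values were seen.

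The replicate numbers come from the culture days of the study's supplement. The residuals of same-numbered arrays had correlations of 0.466, 0.300 and 0.254. Other pairs had -0.327 to 0.126, so the numbers pair the arrays and a fit with experiments as blocks was run. The number of arrays limits the precision. The steps were tested on simulated data. Alternatives covered the methods' t-test, array weights, an intensity trend, the floor and filter, scaling, background correction, outlier spots, counting of genes and omission of each array. Promoters came from a RefSeq table of GRCm38.p6 and were searched with python 3.11.15; figures were drawn with matplotlib 3.10.9. Proteins of the family were not compared here.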

Additional observations from a re-analysis of the deposited data

How the results depend on the processing

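The main counts were 9 TRIM probes lower and 2 higher by the limits of the study, and 4 lower and 1 higher after adjustment. With the replicate block, that is with arrays paired by experiment, they were 11 and 3, and 8 and 4. The calls gained were Trim63 and Trim69 by both limits, and the second Trim24 probe by the limits of the study only. After adjustment Trim21, the brighter Trim24 probe, Trim39, Trim43c and a probe each of Trim34a and Trim65 were also gained, and the other Trim65 probe was lost. With array weights they were 12 and 4, and 19 and 13, while 33.1% of all probes were called after adjustment instead of 5.3%. After adjustment, 8 and 5 were called with an intensity trend (8.74% of all probes), 8 and 4 with probes well above background (11.4%), 7 and 4 with normexp (8.24%; 1 higher by the limits of the study), 5 and 2 with the filter over all 6 arrays (6.52%), 3 and 0 with 75th percentile scaling (3.86%), and 0 and 0 without a filter (1.01%) and by the methods' t-test (0.92%), which left 4 lower and 0 higher at the limits of the study; without a filter these were 6 and 2. Counting genes by their brightest probe gave 7 lower and 1 higher. Leaving out 1 array gave 5 to 10 lower and 1 to 3 higher, and 0 to 4 and 0 to 1 after adjustment, with fewer arrays to test.

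The median of -0.24 was 0.00 without a filter, where 26 of the 31 added probes read 20 on 4 or more arrays, and -0.43 to -0.051 with 1 array left out. Scaling to the 75th percentile moved the median of all probes from 0.06 to 0.22 and that of the TRIM probes to -0.19. Reversals touched only probes within 0.25 of 0. With array weights the second Trim2 probe gave -0.38, and with 75th percentile scaling Trim41 gave 0.064. With 1 array left out, the first Trim2 probe ranged from -0.71 to 0.14, the second from -0.25 to 0.18, Trim59 from -0.020 to 0.66, Trim68 from -0.38 to 0.015 and Trim8 from -0.049 to 0.54. Over the named probes and alternatives, 651 results kept their direction and side of an adjusted p of 0.05, 48 gained and 41 lost the call, and the cause was not tested.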
